A study of Ailuropoda melanoleuca with 25 samples.

Results

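The heart and the kidney of the giant panda (Ailuropoda melanoleuca) were compared by the abundance of messenger RNA in 10 of the 25 libraries of the study, 5 from heart and 5 from kidney, chosen by the tissue in their labels. Libraries with the same number came from the same captive animal, so every gene gave 1 difference between heart and kidney in each of 5 pandas. Panda 1 was a female of 27 years that died with ovarian cancer, and panda 2 was a female of 9 years with a cause of death that the labels spell unclearly. Pandas 3 and 4 (females) and panda 5 (male) were 0.5 years old and died with a coronavirus infection, and the year of death also differed between these sets, so age, disease, and date cannot be told apart. Neither the chamber of the heart nor the zone of the kidney that was sampled is stated, and 1 piece of tissue was sequenced per organ and panda. Between 15342630 and 17715159 reads on genes lay behind a heart library, and between 13982822 and 17336596 behind a kidney library.

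The working cells of heart muscle are packed with sarcomeres, in which thick filaments of myosin pull on thin filaments of actin when calcium is released from an internal store, and dense mitochondria pay for every beat. The kidney is built of nephrons. Podocytes hold back protein at the filter, the proximal tubule takes back sugars, amino acids, phosphate, and small proteins, the loop of Henle builds the salt gradient of the medulla, and the distal tubule and collecting duct set the final content of salt, water, and acid.

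Levels are given as scaled FPKM, the deposited FPKM (fragments normalized to gene length and to the reads of the library) divided by a size factor of the library (the median ratio over genes present in all 10 libraries). The factors ranged from 0.617 to 0.915 in heart and from 1.04 to 1.76 in kidney. The 20 most abundant genes held 32.3% to 42.6% of the summed FPKM of a heart and 17.2% to 25.1% of that of a kidney. Differences are log2(scaled FPKM + 1) in heart minus kidney, averaged over the 5 pandas, so a positive value is higher in heart, and this scale understates differences of genes with low levels. Differentially expressed genes (DEGs) had a Benjamini-Hochberg adjusted p of limma below 0.05 over all genes tested and a difference beyond 2 on the log2 scale.

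One kidney library stood apart. Relative to the mean of the 5 kidneys, the summed level of kidney 4 was 4.84% for the loop of Henle genes, 6.88% for the podocyte genes, 12.4% for the collecting duct genes, and 21.5% for the proximal tubule carriers. It was 31.8% for the tubule enzymes and 41.5% for the uptake and brush border genes. The HOX genes, which keep the positional identity of cells along the body axis, were at 67.7% of their mean there. Some other sums were highest in kidney 4, at 224% of their mean for the plasma protein genes, 179% for the T cell markers, and 262% for the fibroblast gene LUM. APOE alone made up 11534 of the plasma protein sum of 12532 scaled FPKM there. Of the 16 plasma protein genes called, kidney 4 was the lowest kidney for 11 and the highest for 1. Muscle protein turnover genes were at 256% and thin filament genes at 38.5%. B cell and plasma cell markers were at 82.6%, hepatocyte markers at 92.3%, and lung epithelium markers at 30.9%. The part of other cells in these levels was not tested. Results were therefore also computed without panda 4, and a count without it stands beside each kidney group. In bulk tissue, fewer cells of a type and less RNA per cell cannot be told apart.

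**Figure D1:**
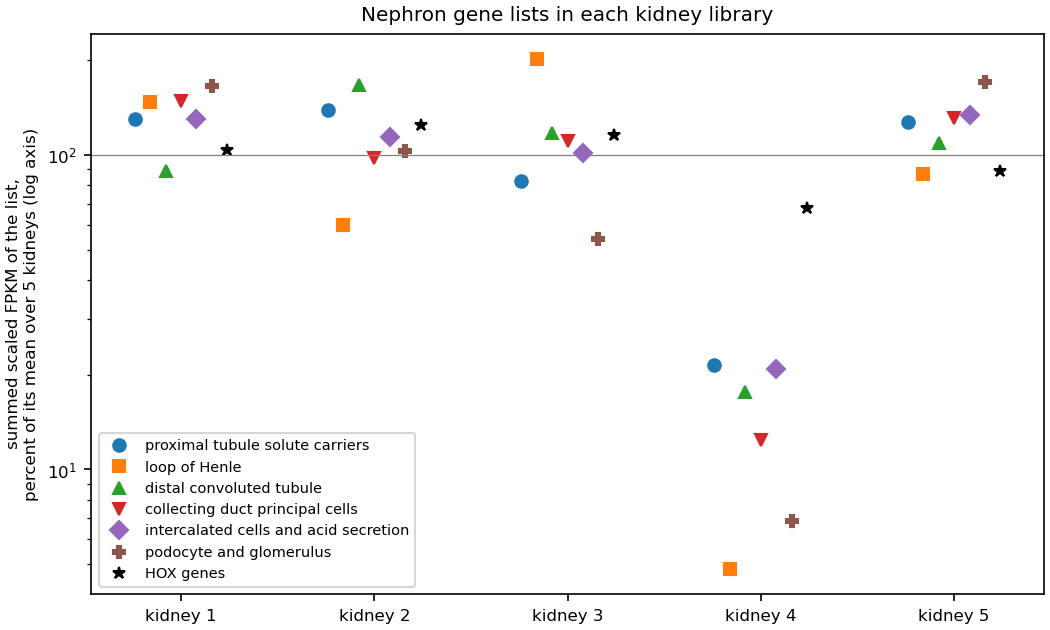
Points give the summed scaled FPKM of 7 gene groups in each kidney library as a percentage of the mean of that group over the 5 kidneys (y axis, log scale). In kidney 4 the 6 nephron groups drawn lie between 4.84% and 21.5% of their mean, while the HOX genes lie at 67.7%. Most of the distal convoluted tubule sum is the single gene FXYD2, which several tubule segments use.

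Of 15428 genes tested, 1956 (12.7%) were DEGs, 808 (5.24%) higher in heart and 1148 (7.44%) higher in kidney. The difference had the same sign in all 5 pandas for 790 of the heart DEGs and 1132 of the kidney DEGs. All 5 hearts lay above all 5 kidneys for 737 of the heart DEGs, and all 5 kidneys lay above all 5 hearts for 1066 of the kidney DEGs. Over all genes tested, such a gap between the tissues was found with heart above for 14.2% and with kidney above for 16.4%. Without scaling between libraries, 485 genes were higher in heart and 1946 in kidney, and the median difference of all genes moved by -0.71 on the log2 scale. With limma-voom on read numbers recovered from the FPKM steps, which damps low levels less, 1506 were higher in heart and 2005 in kidney. The adjusted p alone was passed by 7767 genes (50.3%). Leaving panda 4 out gave 908 and 1385 DEGs. Kidney 4 was the lowest of the 5 kidneys for 915 of the 1148 kidney DEGs. On the deposited scale, 12657 genes had a mean FPKM above 1 in heart and 15173 in kidney.

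Names were known for 1778 genes, which the study had picked as specific to a tissue on these same samples, so the counts of called genes in the groups below are not independent evidence of their direction. Of 1301 named genes tested, 396 were higher in heart and 423 in kidney. Among genes of the 11 groups of heart muscle, 144 were tested, 135 were higher in heart, and the median difference was 4.82. Among genes of the 13 groups of kidney function, 202 were tested, 168 were higher in kidney, 3 were higher in heart, and the median was -3.85. Without panda 4, 185 of 204 kidney group genes were higher in kidney. Kidney 4 was the lowest kidney for 150 of the 168. The median over all genes tested was -0.06. The summed level of the thick filament genes was 48177 to 65341 scaled FPKM in the hearts and 17.8 to 53.2 in the kidneys, and that of the proximal tubule solute carriers 15.6 to 21.9 in the hearts and 487 to 3152 in the kidneys, so no library went against its tissue label.

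**Figure D2:**
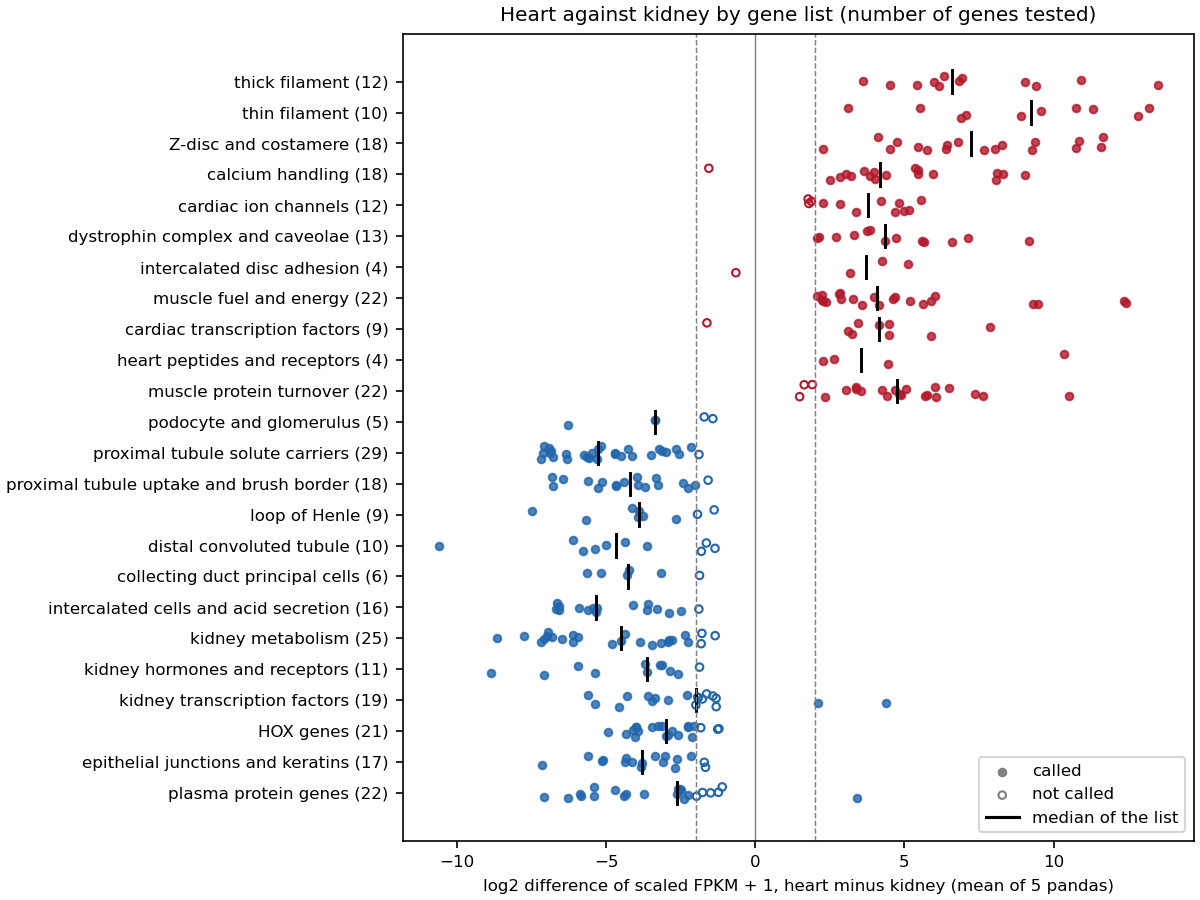
Each point is 1 gene, placed by its log2 difference between heart and kidney (x axis, mean of 5 pandas), in the gene groups named on the y axis. Filled points passed both thresholds, the black bar is the median of the group, and dashed lines mark differences of -2 and 2. Heart groups lie right of 0 apart from 3 open points, and kidney groups lie left of 0 apart from 3 filled points.

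All 12 thick filament genes tested and all 10 thin filament genes tested were higher in heart, with medians of 6.58 and 9.23. MYL2, the regulatory light chain of ventricular myosin, was at 37624, 45229, 42588, 31879.7, and 35187 scaled FPKM in hearts 1 to 5 and at 0.0731, 0.183, 3.72, 4.32, and 11.4 in kidneys 1 to 5. Every heart lay far above every kidney, and the difference was 13.50 ± 0.55 (SE, adjusted p = 3.05e-06). MYL3, the essential light chain of the same motor, was at 8225, 11845, 9086, 11636, and 10747 in the hearts and 15.4, 39.6, 18.0, 6.48, and 26.3 in the kidneys, a difference of 9.06 ± 0.34 (SE, adjusted p = 2.12e-06). The motor itself, the beta myosin heavy chain MYH7, was at 2318, 3869, 1982, 2835, and 1649 in the hearts and never above 0.775 in a kidney (difference 10.90). MYBPC3, the myosin-binding protein C that brakes the motor, ranged from 542 to 1427 in heart and from 0.0689 to 0.233 in kidney, and TTN, the giant spring titin, from 52.6 to 140.1 and from 0.0150 to 0.105. Reads of the myosin heavy chain genes can be shared between near-identical copies, and MYH6 had no identifier among the named genes.

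On the thin filament, the calcium sensor TNNC1 was at 20806, 30490.4, 34609.9, 26581, and 27013 scaled FPKM in the hearts and at 0, 0.454, 2.86, 3.53, and 7.70 in the kidneys, a difference of 13.19 ± 0.41 (SE, adjusted p = 1.07e-06). TNNI3, the inhibitory subunit of cardiac troponin, was at 7414, 13137, 12916, 12274, and 12465 in the hearts. Heart 1 was the lowest of these, and no kidney was above 6.62 (difference 11.34). TNNT2, which ties troponin to tropomyosin, was at 11680.5, 13935, 11560.4, 11535, and 10380.1 in the hearts and 10.8, 5.28, 2.33, 2.40, and 15.99 in the kidneys (difference 10.76). Tropomyosin TPM1, which many cell types use, was at 13836 to 27859 in heart and still at 153 to 541 in kidney, a difference of 5.52 ± 0.36 (SE, adjusted p = 2.51e-05). The slow skeletal troponin TNNT1 was also found in every heart, at 232 to 821, against 1.30 to 5.68 in kidney.

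Both sarcomeric actins were named. ACTA1, the skeletal type, was at 16751, 18212, 17068, 9923, and 8688 scaled FPKM in the hearts and at most 2.57 in a kidney (difference 12.83). ACTC1, the cardiac type, was at 1382, 706, 479, 334, and 2587 in the hearts and at most 0.450 in a kidney (difference 9.56). ACTA1 was listed above ACTC1 in all 5 hearts, by the least in heart 5. The coding sequences of these actins are nearly identical, so the division of reads between them is uncertain.

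**Figure D3:**
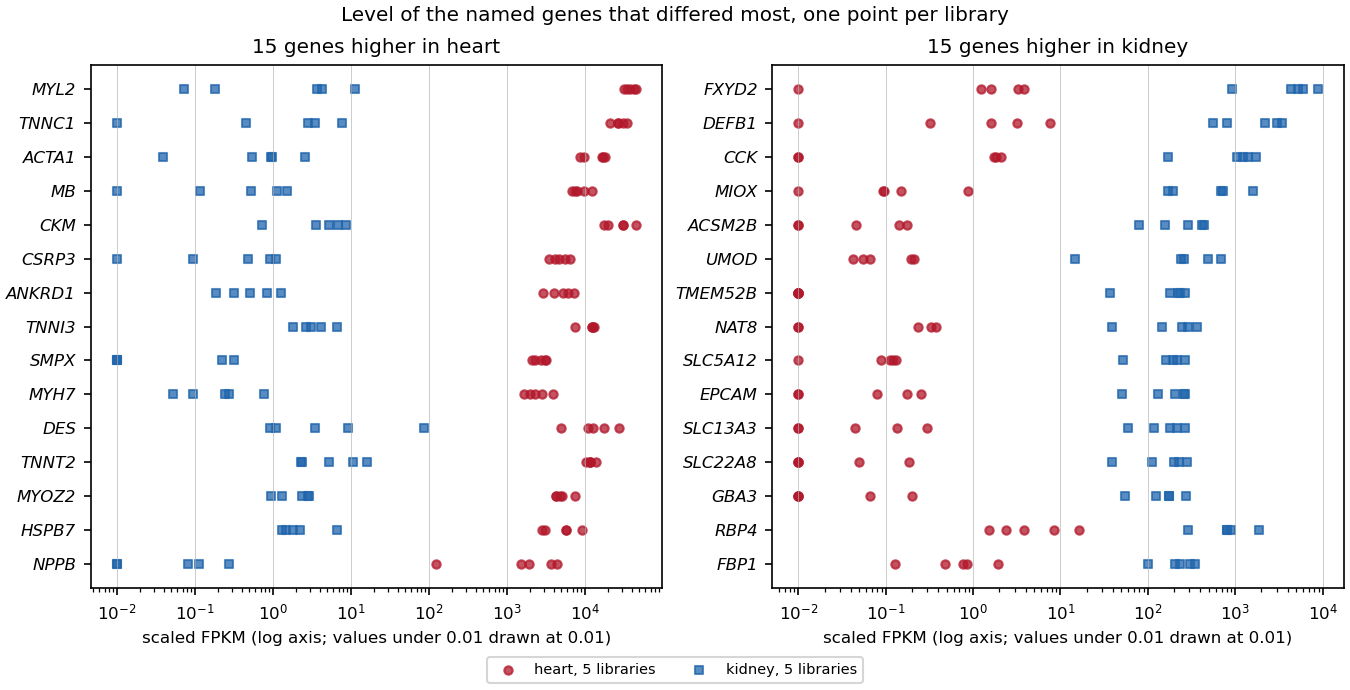
Scaled FPKM (x axis, log scale, values under 0.01 drawn at 0.01) of the 15 named genes with the largest difference in each direction, with 1 red circle per heart library and 1 blue square per kidney library. The tissues do not overlap for any of the 30 genes, which were chosen for that. Kidney 4 is the lowest blue square for every kidney gene but RBP4, for example FXYD2 at 909.8 and UMOD at 14.8.

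At the Z-disc and costamere, which anchor the thin filaments and pass force to the membrane, all 18 genes tested were higher in heart (median 7.23). DES, the intermediate filament that links neighbouring Z-discs, was at 12899, 27848, 10901, 17521, and 5016 scaled FPKM in the hearts and at 0.934, 87.7, 1.11, 9.23, and 3.45 in the kidneys. Kidney 2 stood highest among the kidneys, well below the lowest heart, and the difference was 10.84 ± 0.60 (SE, adjusted p = 1.21e-05). The stretch sensor CSRP3 was at 6460.0, 4638, 5518, 3453, and 4189 in the hearts and never above 1.09 in a kidney (difference 11.67). ANKRD1, a stress-responsive partner of titin, was at 5297, 7263, 3976, 6123, and 2942 in the hearts and 0.322, 0.517, 0.853, 0.185, and 1.28 in the kidneys (difference 11.59). MYOZ2, which tethers calcineurin at the Z-disc, was at 4238 to 7455 in heart and 0.943 to 2.90 in kidney, and the titin cap TCAP at 3133 to 10232 and 4.17 to 14.0. The chaperone CRYAB, which many tissues express, was at 4563 to 8999 in heart and 37.2 to 105 in kidney (difference 6.44). The smallest difference of the group was 2.25 for OBSL1, a cytoskeletal adaptor.

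Of 18 calcium-handling genes tested, 17 were higher in heart (median 4.18). PLN, the brake on the calcium pump of the store, was at 2623, 3691, 6029, 3723, and 5397 scaled FPKM in the hearts and 9.04, 10.96, 7.76, 44.7, and 14.2 in the kidneys, a difference of 8.11 ± 0.39 (SE, adjusted p = 6.42e-06). The pump itself, ATP2A2, is used by most cells and was at 302, 846, 352, 649, and 319 in the hearts and 29.8, 25.2, 25.0, 28.8, and 30.5 in the kidneys (difference 3.97). The kidneys were thus nearly level for ATP2A2, while PLN was highest in kidney 4. The store's calcium buffer CASQ2 was at 245 to 491 in heart and at most 0.0798 in kidney, and the release channel RYR2 at 36.5 to 92.7 and 0.184 to 0.473. S100A1, a calcium-binding partner of the pump and of RYR2, was at 934, 1749.8, 2442, 2029, and 2127 in the hearts and 0.856, 2.32, 0.461, 19.3, and 1.24 in the kidneys, where kidney 4 stood highest. The exception was the calcium channel subunit CACNA1D, at 0.0198 to 0.110 in heart and 0.305 to 5.39 in kidney, whose difference of -1.56 (adjusted p = 0.00443) did not reach 2.

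Among 12 ion channel and junction genes tested, 9 were higher in heart (median 3.79). KCNH2, a potassium channel of repolarization, was at 70.4, 130.0, 37.3, 53.3, and 30.6 scaled FPKM in the hearts and 3.44, 4.17, 2.09, 0.686, and 1.48 in the kidneys (difference 4.197). The anion exchanger SLC4A3 was at 78.0, 197, 51.7, 79.7, and 50.1 in the hearts, with heart 2 the highest, and at 1.05 to 2.41 in the kidneys. GJA1 (connexin 43), which couples neighbouring muscle cells, was at 107, 248, 141, 291, and 145 in the hearts and 15.96, 17.7, 16.2, 98.3, and 15.2 in the kidneys, and kidney 4 reached close to the lowest heart. KCNIP2, a subunit of the transient outward potassium channel, was not called. It was at 31.6, 326, 192, 388, and 131 in the hearts and 33.3, 97.7, 32.7, 34.4, and 37.5 in the kidneys, so heart 1 lay below every kidney while hearts 2 to 5 lay above every kidney, and the difference was 1.88 ± 0.44 (SE, adjusted p = 0.00972).

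At the cell membrane, all 13 genes of the dystrophin complex and of muscle caveolae were higher in heart (median 4.34). CAV3, the muscle caveolin, was at 793, 722, 474, 607, and 565 scaled FPKM in the hearts and at most 0.183 in a kidney (difference 9.17 ± 0.17 SE, adjusted p = 2.61e-07). POPDC2, a membrane protein that binds cyclic AMP, was at 139.9 to 359.8 in heart and 1.14 to 2.07 in kidney. DAG1, the dystroglycan that epithelia use as well, was at 58.7 to 197 in heart and 12.6 to 45.7 in kidney, a difference of 2.08 that was below 2 without panda 2 or panda 4. Of 4 adhesion genes of the intercalated disc, 3 were higher in heart. PKP2, a desmosomal plaque protein, was at 112 to 185 in heart and 2.46 to 3.77 in kidney (difference 5.11). The desmosomal cadherin DSG2 was the other one, at 5.81, 10.6, 6.05, 7.27, and 5.23 in the hearts and 13.2, 10.7, 15.9, 4.26, and 17.6 in the kidneys, which overlap (difference -0.65 ± 0.34 SE, adjusted p = 0.142).

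All 22 genes of muscle fuel use and energy transfer were higher in heart, with a median of 4.07. CKM, the muscle creatine kinase that shuttles high-energy phosphate, was at 17848, 45672, 30880.2, 31041, and 19951 scaled FPKM in the hearts and 0.731, 5.20, 3.64, 8.72, and 6.79 in the kidneys. Heart 2 was the highest and heart 1 the lowest of the hearts, and the difference was 12.37 ± 0.31 (SE, adjusted p = 4.65e-07). MB, the oxygen store myoglobin, was at 9836, 12275, 6886, 7856, and 7534 in the hearts and 0, 0.117, 0.529, 1.13, and 1.53 in the kidneys (difference 12.44 ± 0.31 SE, adjusted p = 4.64e-07). COX6A2, the muscle form of a cytochrome oxidase subunit, was at 2566 to 7684 in heart and 1.01 to 10.8 in kidney, and CPT1B, which admits fatty acids to mitochondria, at 216 to 365 and 1.84 to 5.99. Other members differed by less. LDHB, the lactate dehydrogenase subunit of oxidative tissue, was at 3582, 6037, 6447, 4632, and 4644 in the hearts and 761, 1579, 1105, 1419, and 1181 in the kidneys (difference 2.08 ± 0.21 SE, adjusted p = 2.20e-04). COX7A1 was at 4043 to 6398 in heart and 740.1 to 1889 in kidney (difference 2.24). With quantile normalization the differences of LDHB and COX7A1 were 1.09 and 1.22, so neither was then called. LDHB was also below 2 without panda 3. SLC2A4, the insulin-responsive glucose carrier GLUT4, was at 85.4, 98.6, 68.0, 23.6, and 42.1 in the hearts and 13.4, 12.5, 1.66, 24.4, and 1.98 in the kidneys, so heart 4 and kidney 4 were nearly equal (difference 2.79 ± 0.60 SE, adjusted p = 0.00645).

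Of 9 cardiac regulators tested, 8 were higher in heart (median 4.16). HAND2, a factor of ventricular development, was at 156, 455, 273, 377, and 114 scaled FPKM in the hearts and at most 0.171 in a kidney (difference 7.86 ± 0.33 SE, adjusted p = 3.23e-06). RBM20, which splices titin, was at 51.1, 102, 52.5, 60.4, and 43.7 in the hearts, highest in heart 2, and at most 0.0258 in a kidney. TBX20 was at 15.6 to 34.8 in heart and 0 to 0.131 in kidney, and the ventricular factor IRX4 at 5.08 to 17.0 and 0 to 0.0594. GATA5 was the exception, at 0.0552 to 0.211 in heart and 0.357 to 7.14 in kidney, with a difference of -1.62 (adjusted p = 0.0113) that did not reach 2. GATA6, grouped with the kidney factors, was instead higher in heart, at 88.4, 165, 85.05, 89.2, and 46.9 in the hearts and 2.76, 7.41, 2.89, 4.25, and 1.10 in the kidneys (difference 4.39 ± 0.15 SE, adjusted p = 1.54e-06).

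Some heart genes varied strongly between pandas. MYL7 and MYL4, the light chains known from atrial muscle, were at 52.4, 736, 139, 4.81, and 34.5 and at 10.5, 204, 103, 0.140, and 0.392 scaled FPKM in hearts 1 to 5. Heart 2 was the highest for both and heart 4 the lowest, a spread of 153-fold for MYL7, while the ventricular MYL2 varied by 1.42-fold. Kidneys were at 0 to 0.0716 for MYL7 and 0 to 0.152 for MYL4, so MYL4 overlapped between the tissues. Its difference of 3.62 ± 1.14 (SE, adjusted p = 0.0312) was no longer significant without panda 1, 2, or 3. The chamber from which each piece was taken is not in the labels, and its part in these levels was not tested. NPPB, the natriuretic peptide BNP that a stretched heart secretes, was at 3707, 4411, 1947, 1510.5, and 125 in the hearts and at most 0.276 in a kidney (difference 10.36 ± 0.69 SE, adjusted p = 2.89e-05). Heart 5 was thus the lowest by far. The acetylcholine receptor CHRM2 was at 2.13 to 8.59 in heart and 0 to 0.169 in kidney, the adrenergic receptor ADRA1B at 24.8 to 67.8 and 0.323 to 1.29, and CORIN, the protease that activates natriuretic peptides, at 3.9995 to 12.9 and 0.0694 to 6.16.

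**Figure D4:**
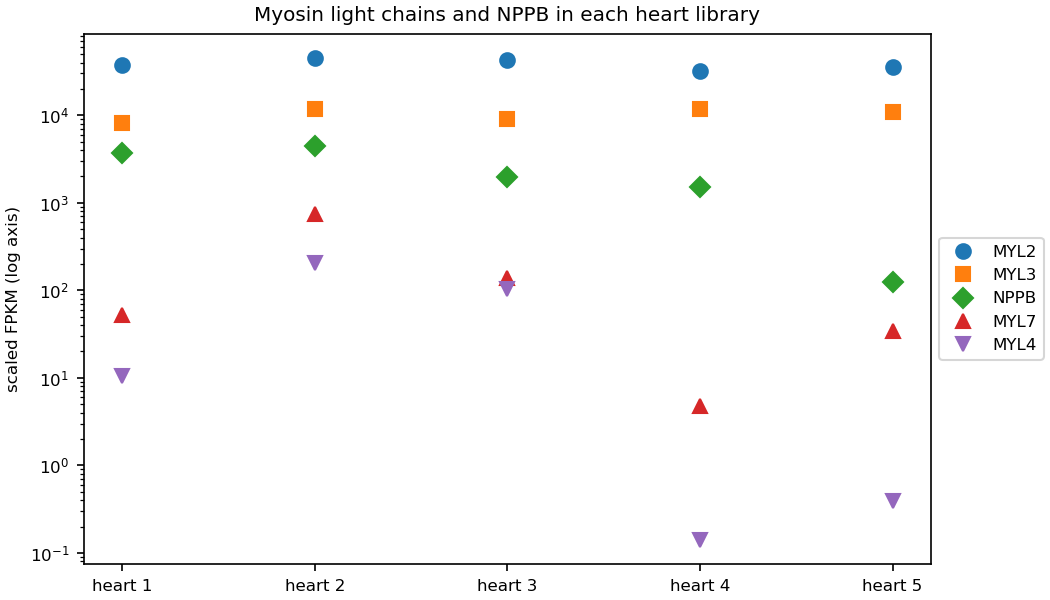
Scaled FPKM (y axis, log scale) of the ventricular light chains MYL2 and MYL3, the natriuretic peptide gene NPPB, and the light chains MYL7 and MYL4 known from atrial muscle, with 1 point per gene in each heart library. MYL2 and MYL3 stay level over the 5 hearts, NPPB is lowest in heart 5 (125), and MYL7 and MYL4 are lowest in heart 4 (4.81 and 0.140).

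Genes of muscle protein turnover were higher in heart in 19 of 22 cases (median 4.75). HSPB7, a small heat shock protein of muscle, was at 5816, 9201, 2805, 5765, and 3077 scaled FPKM in the hearts and 1.31 to 6.73 in kidney (difference 10.51 ± 0.21 SE, adjusted p = 2.61e-07). The muscle ubiquitin ligase TRIM63 (MuRF1) was at 256, 1343, 448, 1326, and 252 in the hearts and 3.20, 8.68, 3.05, 36.6, and 5.34 in the kidneys, where hearts 2 and 4 and kidney 4 stood highest. FBXO32 (atrogin-1), the other well-known ligase of muscle wasting, was at 29.0, 193, 133, 169, and 42.4 in the hearts and 6.52, 26.3, 12.6, 53.4, and 10.2 in the kidneys. Kidney 4 lay above hearts 1 and 5, so the tissues overlapped (difference 2.35 ± 0.26 SE, adjusted p = 3.39e-04). Members of the ASB family of ligase adaptors were higher in heart in 6 of 8 cases, up to 129 for ASB18, and ASB12 and ASB14 were at no more than 6.89 in any heart. Outside the groups, SMPX, a small protein of striated muscle, was at 2301, 2744, 3071, 2138, and 3199.7 in the hearts and at most 0.323 in a kidney (difference 11.24 ± 0.17 SE, adjusted p = 1.45e-07).

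Across the 135 heart group genes that were higher in heart, heart 2 was the highest library for 83 and the lowest for 0. Over all 808 heart DEGs it was the highest for 434 and the lowest for 26. Heart 2 also had the smallest size factor of the hearts, 0.617 against 0.731 to 0.915 in the others, and levels were divided by these factors. Kidney 4 had the smallest factor of the kidneys, 1.042 against 1.046 to 1.758, and was the lowest kidney for 915 of the 1148 kidney DEGs. The order of the hearts was not computed without scaling, and the part of scaling in it was not tested. Without panda 2, 132 of 144 heart group genes were higher in heart. Without scaling, 123 of them were, and CORIN, COX7A1, DAG1, FBXO32, LDHB, and OBSL1 were among those below 2. Muscle RNA in the kidneys was scarce, and the summed thick filament level in a kidney was 0.0370 to 0.108% of that in the heart of the same panda. For the thin filament it was 0.208 to 0.691%, where TPM1 made up most of the kidney sum.

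In the kidney, the filter gave few named genes. Of 5 podocyte and glomerulus genes tested, 3 were higher in kidney (4 without panda 4 and 5 by limma-voom on recovered reads). NPHS1 (nephrin), a protein of the slit diaphragm, was at 28.0, 10.99, 8.01, 0.672, and 22.6 scaled FPKM in kidneys 1 to 5 and at most 0.0432 in a heart (difference -3.37 ± 0.56 SE, adjusted p = 0.00203). Kidney 4 was the lowest, still above every heart. COL4A3, a collagen of the filter membrane, was at 1.80 to 22.03 in kidney and 0.0210 to 0.569 in heart.

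Solute carriers of the proximal tubule were higher in kidney in 28 of 29 cases (29 without panda 4), with a median of -5.28. SLC5A12, a sodium-coupled lactate carrier, was at 163, 267, 194, 52.3, and 214 scaled FPKM in the kidneys and at most 0.130 in a heart (difference -7.18 ± 0.32 SE, adjusted p = 5.00e-06). SLC34A1, the main phosphate carrier of the brush border, was at 316, 215, 99.1, 21.2, and 244 in the kidneys and at most 0.276 in a heart (difference -6.91). SLC5A2 (SGLT2), which takes back most of the filtered glucose, was at 260.2, 188, 80.4, 22.1, and 207 in the kidneys and at 2.04, 0.904, 0.920, 1.398, and 3.04 in the hearts (difference -5.48 ± 0.46 SE, adjusted p = 8.54e-05). Kidney 4 was the lowest for each of these, and for 27 of the 28 carriers called.

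Carriers of organic ions and acids were also high in kidney. SLC22A8, an organic anion carrier, was at 198, 285, 112, 38.6, and 227 scaled FPKM in the kidneys and at most 0.186 in a heart (difference -7.09), and SLC22A12 (URAT1), which reclaims urate, at 28.5 to 289 in kidney and at most 0.183 in heart. SLC13A3, a carrier of dicarboxylates, was at 182, 268, 118, 59.8, and 216 in the kidneys and at most 0.295 in a heart (difference -7.11). SLC17A1, a sodium phosphate cotransporter that also moves urate, was listed at 0 in all 5 hearts and was at 9.33 to 27.8 in kidney. Against the floor of 3 reads over the 5 hearts, its mean in kidney was at least 550.4-fold higher. The smallest differences were found for the carriers SLC5A8 (-1.89, not called) and SLC22A13 (-2.17), the latter below 2 without panda 1 or 5. In the hearts, the summed level of these carriers was 0.529 to 4.50% of that in the kidney of the same panda, the highest share being that of panda 4.

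For protein uptake and the brush border, 17 of 18 genes were higher in kidney (17 without panda 4, median -4.19). LRP2 (megalin), the receptor that recovers filtered proteins, was at 56.4, 30.8, 61.3, 12.9, and 63.7 scaled FPKM in the kidneys and at most 0.0459 in a heart (difference -5.28). Its partner AMN (amnionless) was at 214, 323, 58.3, 13.6, and 113 in the kidneys and at most 0.122 in a heart (difference -6.47 ± 0.60 SE, adjusted p = 1.40e-04), and the scaffold PDZK1 at 306, 271, 263, 67.5, and 490.3 in the kidneys and 0.768 to 1.90 in heart (difference -6.83 ± 0.45 SE, adjusted p = 2.78e-05). AQP1, a water channel of proximal tubule and of vessel walls, was high in both tissues, at 202, 227, 208, 258, and 100.8 in the hearts and 982, 891, 1188, 262, and 1031 in the kidneys, and its difference of -2.02 ± 0.43 (SE, adjusted p = 0.00602) lay just beyond 2. Without panda 1, 3, or 5 it was below 2. CA4, a membrane carbonic anhydrase, was at 118, 159.9, 116, 353, and 160.3 in the kidneys, and 6.98 to 13.7 in heart (difference -3.98 ± 0.21 SE, adjusted p = 9.01e-06). It was highest rather than lowest in kidney 4.

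Loop of Henle genes were higher in kidney in 7 of 9 cases (8 without panda 4, median -3.90), and their summed level had the widest spread of the kidney groups over the 5 kidneys. UMOD (uromodulin), the most abundant protein of normal urine, was at 483, 237, 692, 14.8, and 259 scaled FPKM in the kidneys and at most 0.209 in a heart (difference -7.50 ± 0.69 SE, adjusted p = 1.38e-04). SLC12A1, the target of loop diuretics, was at 187, 23.1, 236, 2.37, and 116 in the kidneys, with kidneys 2 and 4 low, and at most 0.0739 in a heart (difference -5.67 ± 0.85 SE, adjusted p = 0.00127). KCNJ1 (ROMK), the potassium channel that feeds this carrier, was at 31.5, 7.45, 32.0, 1.38, and 39.5 in the kidneys and listed at 0 in every heart, at least 528-fold higher in kidney against the floor of 3 reads. CLDN19, a claudin of the pores for calcium and magnesium, was at 39.9, 21.8, 56.2, 1.06, and 18.6 in the kidneys and at most 0.157 in a heart. The summed level of the 9 genes was 819, 332, 1121, 26.9, and 484 in kidneys 1 to 5, a spread of 41.6-fold. The depth at which each piece was cut, cortex or medulla, is not stated, and its part in this spread was not tested.

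Further along, 7 of 10 distal convoluted tubule genes were higher in kidney (8 without panda 4, median -4.69). FXYD2, a small subunit of the sodium pump that several tubule segments use, gave the largest difference of all named kidney genes. It was at 4358, 8817, 5937, 909.8, and 5261 scaled FPKM in the kidneys and 0, 1.60, 3.26, 1.24, and 3.84 in the hearts (difference -10.60 ± 0.47 SE, adjusted p = 4.28e-06). FXYD2 made up most of the summed level of the 10 genes, which was 9232 in kidney 2 and 974 in kidney 4. SLC12A3, the target of thiazide diuretics, was at 161, 144, 104, 17.1, and 114 in the kidneys and 2.11 to 4.25 in heart (difference -4.38 ± 0.38 SE, adjusted p = 1.03e-04). CALB1 (calbindin), which carries calcium through the cell, was at 174, 25.9, 272, 5.32, and 323 in the kidneys, with kidneys 2 and 4 low, and at most 0.310 in a heart (difference -6.11 ± 0.84 SE, adjusted p = 8.70e-04). KL (klotho), the co-receptor of a phosphate-lowering hormone, was at 13.1 to 69.6 in kidney and at most 0.0346 in heart. KLK1, the tissue kallikrein, was at 62.1, 171, 38.6, 18.4, and 65.9 in the kidneys and at most 0.134 in a heart.

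In the collecting duct, 5 of 6 principal cell genes (6 without panda 4, median -4.26) and 15 of 16 intercalated cell genes (16 without panda 4, median -5.34) were higher in kidney. HSD11B2, which shields the aldosterone receptor from cortisol, was at 144, 133, 89.7, 13.2, and 129.7 scaled FPKM in the kidneys and 0.0992 to 1.57 in heart (difference -5.64 ± 0.44 SE, adjusted p = 5.97e-05). The vasopressin receptor AVPR2 was at 11.4, 2.33, 2.78, 0.904, and 4.77 in the kidneys, and its difference of -1.87 (adjusted p = 0.00293) did not reach 2. Among intercalated cell genes, the ammonia channel RHCG was at 172, 224, 109.7, 23.6, and 169 in the kidneys and at most 0.133 in a heart (difference -6.69 ± 0.44 SE, adjusted p = 2.78e-05). CA2, the carbonic anhydrase that makes protons for secretion, was at 289.7, 307, 221, 68.8, and 382 in the kidneys and 0.134 to 2.22 in heart (difference -6.66 ± 0.35 SE, adjusted p = 9.54e-06). The proton pump subunits ATP6V0A4 and ATP6V1B1 were at 12.1 to 70.1 and 10.7 to 68.9 in kidney, and their master factor FOXI1, listed at 0 in every heart, at 3.12 to 20.8. SLC4A1, the chloride and bicarbonate exchanger of intercalated and red cells, was at 23.5, 12.9, 11.7, 2.70, and 18.2 in the kidneys and at most 0.0291 in a heart.

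Metabolic enzymes of the tubule were higher in kidney in 22 of 25 cases (24 without panda 4, median -4.50). MIOX, which breaks down inositol, was at 735, 1601, 193, 171, and 694 scaled FPKM in the kidneys and at most 0.886 in a heart (difference -8.65 ± 0.47 SE, adjusted p = 1.14e-05). ACSM2B, which activates medium-chain acids, was at 287, 412, 156, 79.5, and 435 in the kidneys and at most 0.175 in a heart (difference -7.75), and NAT8, which makes mercapturic acids, at 245, 369, 146, 39.1, and 287 in the kidneys and at most 0.377 in a heart (difference -7.20). FBP1, a control point of glucose synthesis, was at 236, 302, 202, 101.4, and 351 in the kidneys and 0.128, 0.843, 0.483, 1.96, and 0.758 in the hearts (difference -6.99 ± 0.38 SE, adjusted p = 1.10e-05). Kidneys 2 and 5 were the highest for 12 and 9 of the 22 genes called, and kidney 4 was the lowest for 19. BHMT, a methyl donor enzyme, was at 81.8, 539, 46.7, 103, and 100.1 in the kidneys and so was not lowest in kidney 4.

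Of 11 hormone and receptor genes, 10 were higher in kidney (11 without panda 4, median -3.65). CCK (cholecystokinin), better known as a hormone of gut and brain, was at 1215, 1387, 1044, 169, and 1739.5 scaled FPKM in the kidneys and 0, 1.82, 0, 2.11, and 1.75 in the hearts (difference -8.86 ± 0.60 SE, adjusted p = 3.06e-05). CYP24A1, which inactivates vitamin D, was at 134, 57.3, 47.8, 17.5, and 166 in the kidneys and at most 0.211 in a heart (difference -5.95 ± 0.46 SE, adjusted p = 5.74e-05). The vitamin D receptor VDR was at 76.7, 96.6, 40.5, 15.7, and 44.1 in the kidneys and 2.20, 10.2, 0.380, 7.70, and 0.768 in the hearts, with hearts 2 and 4 the highest hearts (difference -3.65 ± 0.56 SE, adjusted p = 0.00143). PTH1R, the receptor of parathyroid hormone, was at 133, 96.7, 58.4, 7.75, and 105 in the kidneys and 7.85, 3.47, 6.49, 4.07, and 5.99 in the hearts, so kidney 4 lay just below the highest heart. A gene listed as AVP (vasopressin, a hormone known from the hypothalamus) was at 23.0, 16.7, 9.36, 1.79, and 29.8 in the kidneys and 0 in every heart.

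Of 19 transcription factors of kidney development tested, 9 were higher in kidney (13 without panda 4 and 17 by limma-voom on recovered reads), 2 were higher in heart, and the median was -1.996. PAX8 was at 77.5, 88.3, 53.0, 14.1, and 61.7 scaled FPKM in the kidneys and at most 0.118 in a heart (difference -5.61 ± 0.38 SE, adjusted p = 3.04e-05). EMX1 was at 55.6, 35.8, 23.9, 3.36, and 45.2 in the kidneys and at most 0.193 in a heart (difference -4.57). LHX1, a factor of the early nephron, was not called, at 0.228 to 2.58 in kidney and 0 in heart (difference -1.32). Besides GATA6, CITED1 was higher in heart, at 18.6, 62.1, 30.8, 68.7, and 11.4 in the hearts and 5.48, 12.7, 3.52, 7.05, and 6.37 in the kidneys (difference 2.09 ± 0.34 SE, adjusted p = 0.00184, below 2 without panda 3 or 4).

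HOX genes, whose order along the chromosome matches the body axis, were higher in kidney in 18 of 21 cases (19 without panda 4, median -2.99), and all 5 kidneys lay above all 5 hearts for each of the 21. Such a gap was found for 16.4% of all genes tested. The 21 had names because the study picked them as specific to a tissue on these same samples, so the gap is not independent evidence. HOXD8 was at 47.2, 40.6, 67.7, 29.3, and 62.1 scaled FPKM in the kidneys and 0.116, 0, 0.871, 1.62, and 0.685 in the hearts (difference -4.95 ± 0.30 SE, adjusted p = 1.76e-05). HOXA7 was at 24.9, 31.6, 21.98, 27.4, and 20.7 in the kidneys and at most 1.30 in a heart (difference -4.09 ± 0.22 SE, adjusted p = 1.01e-05), and HOXC6 at 14.4, 19.9, 13.7, 23.5, and 10.1 in the kidneys and at most 0.228 in a heart (difference -3.999 ± 0.22 SE, adjusted p = 1.26e-05). Kidney 4 was the lowest of the kidneys for HOXD8, lay within the other kidneys for HOXA7, and was the highest for HOXC6. Over the 18 HOX genes called, it was the lowest for 10 and the highest for 3. HOXA10 was at 6.93 to 23.1 in kidney and listed at 0 in every heart, at least 307-fold higher in kidney against the floor of 3 reads. The summed HOX level was 295, 354, 330.1, 193, and 253 in kidneys 1 to 5 and 1.72, 1.94, 4.73, 8.24, and 5.69 in hearts 1 to 5, a spread of 1.83-fold over the kidneys.

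Epithelial junction and keratin genes were higher in kidney in 15 of 17 cases (17 without panda 4, median -3.81). EPCAM, the adhesion molecule of most epithelia, was at 130.1, 268, 261, 51.2, and 205 scaled FPKM in the kidneys and at most 0.257 in a heart (difference -7.17 ± 0.36 SE, adjusted p = 7.67e-06). CDH16, the kidney cadherin, was at 519, 534, 273, 51.2, and 364 in the kidneys and 4.17, 12.4, 2.49, 4.92, and 2.59 in the hearts (difference -5.61 ± 0.50 SE, adjusted p = 1.16e-04). The keratin KRT8 was at 486, 727, 325, 68.8, and 356 in the kidneys and 208, 111, 85.1, 63.0, and 65.9 in the hearts, so kidney 4 lay within the hearts, and its difference of -1.67 ± 0.36 (SE, adjusted p = 0.00687) did not reach 2. Outside the groups, the antimicrobial peptide gene listed as DEFB1 was at 812, 3437, 2991, 561, and 2183 in the kidneys and 0.319, 0, 3.21, 1.62, and 7.56 in the hearts (difference -9.25 ± 0.53 SE, adjusted p = 1.44e-05). The description beside this symbol names another beta-defensin, so which defensin it is remains uncertain. TMEM52B, a membrane protein, was at 220.1, 178, 231, 36.9, and 264 in the kidneys and at 0 in every heart, at least 2118-fold higher in kidney against the floor of 3 reads. Floors count reads only and cover counting error alone.

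Genes of plasma proteins, for which the liver is the known main source, were higher in kidney in 16 of 22 cases (18 without panda 4, median -2.62). RBP4, the retinol carrier, was at 809, 1863, 286, 808, and 894 scaled FPKM in the kidneys and 1.54, 3.80, 2.41, 16.5, and 8.49 in the hearts (difference -7.08 ± 0.45 SE, adjusted p = 2.31e-05). APOH, a phospholipid-binding glycoprotein, was at 82.5, 268, 146, 59.2, and 221 in the kidneys and 0, 0.204, 0.699, 1.57, and 2.05 in the hearts (difference -6.27 ± 0.40 SE, adjusted p = 2.37e-05), and KNG1, the precursor of bradykinin, at 72.8, 173, 139, 25.2, and 80.3 in the kidneys and at most 1.12 in a heart (difference -5.90). APOE, a lipid carrier that macrophages and other cells also make, was at 2155, 3743, 1035, 11534, and 1779 in the kidneys, highest in kidney 4, and at 119.7, 34.3, 36.6, 112, and 68.9 in the hearts (difference -5.40 ± 0.42 SE, adjusted p = 6.07e-05). MASP1, a protease of the lectin complement pathway, was the member higher in heart, at 18.4, 20.6, 6.08, 27.0, and 23.6 in the hearts and 0.986, 1.16, 0.514, 0.441, and 0.693 in the kidneys (difference 3.40 ± 0.29 SE, adjusted p = 9.97e-05).

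The liver libraries of the same pandas were set beside the kidneys, on the deposited FPKM scale. Both groups below hold products of the liver, with FGA and FGG among the hepatocyte markers and FGB among the plasma protein genes. This division was chosen with earlier results of these data known. The gap between the groups is therefore not independent evidence on liver RNA in the kidney, which was not tested. The 12 hepatocyte marker genes with an identifier were in kidney at 0.00870% to 2.45% of their mean in liver (median 0.182%), and 0 of them exceeded 5%. Of the 6 that were tested, APOC1 (-3.53), SERPINA1 (-3.54), and APOC3 (-2.07, below 2 without panda 1 or 3) were higher in kidney than in heart. The 24 plasma protein genes were at 0.274% to 40.9% (median 5.71%), and 12 exceeded 5%. The fibrinogen alpha chain FGA had a mean of 1826 FPKM in liver and 1.02 in kidney, and AHSG, an abundant hepatocyte product, 6978 and 0.607. The plasmin inhibitor SERPINF2 had 336 in liver and 105 in kidney (31.3%), the complement component C6 311 and 102 (32.7%), and RBP4 6880.0 and 1171 (17.0%). The fibrinogen beta chain FGB, at 1.23%, stood above FGA at 0.0560% and FGG at 0.0153%, although the protein needs all chains. These shares are ratios of means over 5 libraries, side by side without a test, and the libraries varied widely. Over the livers, SERPINF2 ranged from 8.96 to 761, C6 from 20.7 to 500, and RBP4 from 1741 to 9741.

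**Figure D5:**
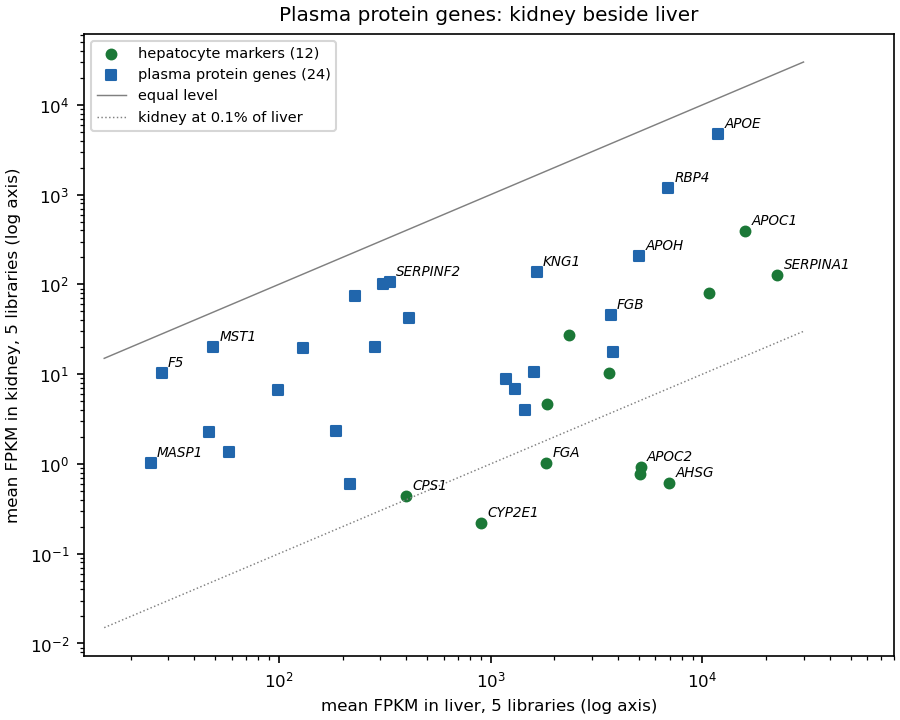
Mean FPKM as deposited in kidney (y axis) against liver (x axis), both on log scales, with 1 point per gene for 12 hepatocyte markers (green circles) and 24 plasma protein genes (blue squares). The solid line marks equal levels and the dotted line 0.1% of the liver level, below which AHSG, FGG, APOC2, CYP2E1, and FGA lie. By these means, the plasma protein genes MST1 and APOE lie closest to the solid line, at 40.9% and 39.9%. MST1 ranged from 2.76 to 86.7 over the livers, and APOE from 1819 to 12018 over the kidneys.

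Only some markers of other cells had an identifier, and those of B and T cells were low in both tissues. Of the immunoglobulin genes, the joining chain JCHAIN was at 13.5 to 25.0 scaled FPKM in kidney and 3.82 to 5.82 in heart, and its difference of -1.95 ± 0.23 (SE, adjusted p = 4.55e-04) did not reach 2. IGHM, the heavy chain of IgM, was at 2.55 to 12.3 in kidney and 1.57 to 6.61 in heart (difference -0.68 ± 0.46 SE, adjusted p = 0.251), and the defining B cell gene MS4A1 was at most 0.132 in any library. The summed level of the 9 B cell and plasma cell genes was 8.29 to 15.6 in heart and 24.6 to 48.6 in kidney. That of the 6 T cell genes was 0.976 to 10.7 in heart and 2.05 to 8.56 in kidney, so the tissues overlapped, and CD3E, a chain of the T cell receptor complex, differed by 0.00 ± 0.28 (SE, adjusted p = 0.994). Of the lung epithelium genes, NAPSA, a protease that proximal tubule cells make as well, was at 69.5, 52.0, 34.3, 12.7, and 117 in the kidneys and 1.47 to 3.22 in heart (difference -3.89 ± 0.45 SE, adjusted p = 4.02e-04). The surfactant gene SFTPC was at 0, 0.180, 2.60, 11.1, and 8.66 in the hearts and 0.525, 2.06, 1.0299, 1.41, and 6.65 in the kidneys, highest in hearts 4 and 5. LUM (lumican), a matrix proteoglycan of fibroblasts, was at 115, 98.1, 78.6, 176, and 260.5 in the hearts and 2.04, 6.13, 4.52, 17.0, and 2.72 in the kidneys (difference 4.47 ± 0.41 SE, adjusted p = 1.29e-04), with kidney 4 the highest kidney. LUM was the only 1 of 8 endothelium and fibroblast markers with an identifier, and SLC4A1 the only 1 of 6 red cell markers. Of 6 adrenal cortex markers, 1 had an identifier. Macrophage and adipocyte markers had no identifier among the named genes and were not analysed here.

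Some further genes varied strongly between pandas. DGAT2, which makes triglycerides, was at 325, 208, 6.93, 1219, and 76.8 scaled FPKM in the kidneys and 3.18, 2.72, 2.59, 4.12, and 5.23 in the hearts, highest in kidney 4 (difference -4.96 ± 0.86 SE, adjusted p = 0.00252). SPP1 (osteopontin), a secreted phosphoprotein that inhibits crystal growth in urine, was at 4284, 627, 3931, 492, and 6235 in the kidneys and 133, 29.7, 5.75, 89.7, and 7.71 in the hearts (difference -6.09 ± 1.02 SE, adjusted p = 0.00212). Among heart genes, the phosphatase PHOSPHO1 was at 41.0, 18.0, 14.3, 16.8, and 22.9 in the hearts and 0.724, 7.03, 0.360, 15.7, and 0.483 in the kidneys (difference 2.69 ± 0.64 SE, adjusted p = 0.0104).

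Other named genes were abundant in both tissues and not called. CLU (clusterin), a secreted chaperone, was at 934, 588, 451, 704, and 617 scaled FPKM in the hearts and 503, 382, 932, 558, and 506 in the kidneys (difference 0.22 ± 0.29 SE, adjusted p = 0.559). SERPING1, the inhibitor of complement component C1, was at 191, 97.2, 110.2, 411, and 249 in the hearts and 123, 176, 229, 175, and 100.7 in the kidneys (difference 0.25 ± 0.39 SE, adjusted p = 0.622). Hearts and kidneys overlapped for both, and the sign of both differences turned without scaling and with quantile normalization. NNMT, which methylates nicotinamide, was at 144, 112, 56.1, 1237, and 226 in the hearts and 26.8, 661, 36.7, 761, and 37.3 in the kidneys, with heart 4 and kidneys 2 and 4 far above the rest. DSTN, an actin-severing protein, was higher in heart in all 5 pandas by a small amount (0.74 ± 0.16 SE, adjusted p = 0.00616), but without scaling its difference was -0.10.

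The difference between heart and kidney was compared between pandas 3 to 5 and pandas 1 and 2, as the former minus the latter (interaction). By limma, 0 of 15428 genes passed at an adjusted p of 0.05, and 214 (1.39%) had an unadjusted p below 0.05. With limma-voom on recovered reads 0 passed as well, and over all alternatives between 91 and 1150 genes had such an unadjusted p, the most without panda 1. Among named genes with the smallest p, MIOX was at 735 and 1601 in kidneys 1 and 2 and at 193, 171, and 694 in kidneys 3 to 5 (interaction 2.22 ± 0.57, unadjusted p = 0.00621, adjusted p = 1). IRX6 was at 147 and 55.4 in hearts 1 and 2 and at 29.9, 9.52, and 11.1 in hearts 3 to 5 (interaction -2.48 ± 0.63, unadjusted p = 0.00615, adjusted p = 1). None of these differences passed the correction.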

How the data were processed

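RNA from 5 tissues of 5 pandas was sequenced as paired ends, and the heart and kidney libraries were compared here. The authors aligned cleaned reads with HISAT2 to the ailMel1 assembly, added genes assembled with Cufflinks from all libraries together, counted reads per gene with HTSeq, and deposited FPKM (fragments normalized to gene length and library total) for 25376 genes, with no scaling between libraries and no strand setting stated. Assembled genes carry no name, and reads of near-identical copies may be divided between them. Comparisons made by the study were not used, and 0 columns belonged to other samples.

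Gene names came from the supplementary list of tissue-specific genes (1778 names, of which 1623 are known to RefSeq and 15 misread symbols were corrected from the gene description beside them). Read numbers were recovered from the steps of the FPKM values as whole multiples within 0.05 for 24206 of 24207 genes, which gave the depths and allowed a run of limma-voom on reads. FPKM were divided by median-of-ratios size factors, log2(scaled FPKM + 1) was fitted with limma 3.58.1 (R 4.3.3, variance trend) with panda as a block, and genes with a mean above 1 in either tissue were tested. In both tissues, deviations from the tissue mean correlated within each of the 5 pandas (0.202 to 0.459, against -0.344 to 0.299 with a median of -0.098 between different pandas), and the labels give the same animal for the same number. Data were also simulated for genes with a mean deposited FPKM above 1 over the 10 libraries, with 200 of them changed 8-fold. Of these 200, 198 were called, and 0 unchanged genes were, while 13 unchanged genes had an adjusted p of limma below 0.05. The simulation held no library like kidney 4 and no difference in scale between the tissues, so it does not cover these. Tables and plots were made with Python 3.11.15, pandas 2.3.3, and matplotlib 3.10.9.

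The comparison, gene groups, and tests were chosen with earlier results of these data known. Named by rule were the 15 DEGs per direction with the largest difference and no overlap, the 4 most abundant members of each group and every member called against it, the 5 DEGs per direction that varied most between pandas, the 10 most abundant genes not called, and the 10 with the smallest p between panda sets. Other members of the groups were named after their values were seen, and a few genes that count in the groups are not reported here. Alternatives were TMM factors, quantile normalization, or no scaling, no block, 2 other filters on low values, a pseudocount of 0.1, each panda left out, kidney 4 left out, limma-voom, and a difference beyond 1.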

Additional observations from a re-analysis of the deposited data

Results flagged for a closer look

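In 13 of 142 tests, a library lay so far from the other 4 of its tissue that the gap passed the 95% limit of Dixon's test. Chance alone flags about 1 in 20 independent groups. These genes share libraries, and some were chosen for their spread between pandas, so the 13 cannot be set against that share. The values were not put on a log scale, where a library low by a large fold would stand out more. Kidney 4, the lowest kidney for 150 of the 168 kidney group genes called, was flagged only as high. All values are scaled FPKM, with the range of the other 4 libraries after each. Of the kidneys, kidney 4 was the highest for APOE (11534 against 1035 to 3743), CA4 (353 against 116 to 160.3), DGAT2 (1219 against 6.93 to 325), and the iron carrier TF (55.3 against 10.9 to 20.7). Kidney 3 was the highest for the protease inhibitor SERPINA1 (239 against 21.2 to 56.1) and the surfactant protein SFTPD (2.72 against 0 to 0.489). Of the hearts, heart 2 was the highest for MYL7 (736 against 4.81 to 139), RBM20 (102 against 43.7 to 60.4), and SLC4A3 (197 against 50.1 to 79.7). Heart 3 was the highest for CRYAB (8999 against 4563 to 5567) and MYOZ2 (7455 against 4238 to 5050.5), and heart 4 for NNMT (1237 against 56.1 to 226). TNNI3 was lowest in heart 1 (7414 against 12274 to 13137).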

How the results depend on the processing

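Counts depended most on the threshold and the scale of low values. Against 1956 DEGs (808 in heart, 1148 in kidney), a pseudocount of 0.1 gave 3371 (1307 and 2064), limma-voom on recovered reads 3511 (1506 and 2005), and a difference beyond 1 gave 5043 (2242 and 2801). Without scaling, 485 were higher in heart and 1946 in kidney, while the median difference of all genes moved by -0.71, against 0.12 with quantile normalization and 0.15 with TMM factors or limma-voom. The podocyte group gave 5 genes instead of 3 with the pseudocount of 0.1 and with limma-voom. The transcription factor group of the kidney gave 14 instead of 9 without scaling and without kidney 4, and 17 with the pseudocount of 0.1 and with limma-voom. Leaving out each panda in turn gave 1879 to 2293 DEGs, 780 to 908 in heart and 1076 to 1385 in kidney, the most without panda 4, and 9 to 13 genes of the transcription factor group. Without the replicate block (no pairing by panda) there were 1949 DEGs (804 and 1145), and none of the 384 differences of single genes changed its call.

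Of 5328 differences of single genes over all alternatives, 5098 kept direction and call, 146 passed and 63 no longer passed the thresholds, and 21 turned sign, all of genes not called. Without scaling, the turned values were -0.46 for APOA1, -0.32 for CD3E, -0.63 for CLU, -0.10 for DSTN, -0.37 for LMCD1, -0.10 for NNMT, -0.59 for SERPING1, and -0.18 for SFTPC. With quantile normalization they were 0.10 for CD3D, -0.51 for CLU, and -0.14 for SERPING1. SFTPC turned to -0.21 with the pseudocount of 0.1, and CD3D to 0.13 without kidney 4 and 0.14 with limma-voom. Leaving out each panda in turn gave -0.18 to 1.01 for APOA1 (lowest without panda 4), -0.33 to 0.18 for CD3D (above 0 without panda 2 at 0.18 and panda 3 at 0.06), -0.22 to 0.27 for CD3E (below 0 without panda 1 and, at -0.02, panda 5), -0.00454 to 0.58 for SERPING1 (lowest without panda 5), and -0.22 to 0.72 for SFTPC (lowest without panda 4). The causes were not tested. With 1 piece per organ, differences between pandas and between pieces cannot be told apart, and the floors cover counting error only.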

Other observations

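Named DEGs outside the groups were also described, chosen after their values were seen, with mean scaled FPKM over 5 libraries. In all of them every panda differed the same way and the tissues did not overlap. RPL3L, a form of a ribosomal protein known from striated muscle, had 288 in heart and 0.623 in kidney (log2 difference 7.47 ± 0.16 SE). EEF1A2, the translation elongation factor of muscle and nerve, had 1221 and 2.098 (8.70 ± 0.25 SE). PRKAG3, a regulatory subunit of the energy sensor AMPK, had 423 in heart and 0.293 in kidney (8.32 ± 0.17 SE). FHL1, a LIM domain protein of the sarcomere, had 2346 and 31.3 (6.56 ± 0.37 SE), and LRRC10, a heart protein that binds actin, 279 in heart and 0 in every kidney. FXYD1 (phospholemman), the regulator of the sodium pump in muscle, had 1935 in heart and 49.9 in kidney (5.29 ± 0.19 SE), the opposite order of its relative FXYD2.

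In kidney, CKB, the brain-type creatine kinase, had 223 and in heart 3.27 (-5.65 ± 0.29 SE), the opposite order of the muscle-type CKM. ACE, which makes angiotensin II, had 37.6 in kidney and 0.992 in heart (-4.22 ± 0.25 SE). Uroguanylin (GUCA2B) and guanylin (GUCA2A), peptides known to promote salt excretion, had 44.0 and 24.3 in kidney, with GUCA2B at 0 in every heart and GUCA2A at 0.196 (-4.08 ± 0.59 SE). GJB1 (connexin 32) had 76.6 in kidney and 0.0521 in heart (-5.89 ± 0.43 SE), the opposite order of GJA1. NR1H4, the bile acid receptor FXR, had 23.4 and 0.242 (-4.00 ± 0.35 SE), and TTPA, the vitamin E transfer protein known from liver, 20.1 and 0.0837 (-4.17 ± 0.28 SE). MMP7, a metalloproteinase of epithelia, had 59.3 in kidney and 0.213 in heart (-5.31 ± 0.47 SE).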
